A study of Mus musculus with 6 samples.

Results

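The Pax genes examined here were Pax6, Pax3, Pax7, Pax2, Pax5, Pax1 and Pax9. Each was represented by a fixed window of the mouse build mm9, which the submitters' processing notes name, and every deposited peak that overlapped a window by at least 1 bp was taken, without regard to its strength. The 7 windows together span 770.0 kb and held 85 of the 43384 peaks in the 3 lists. Of these, 42 were H3K27me3 peaks at 30 h of differentiation, 30 were H3K27me3 peaks in proliferating cultures and 13 were H3K4me3 peaks in proliferating cultures. Chromatin immunoprecipitation followed by sequencing (ChIP-seq) recovers DNA bound to a modified histone with an antibody. It was performed on monolayer cultures of neural stem cells from the subventricular zone (SVZ NSCs) of C57BL/6 mice. Per the methods for such cultures, the tissue was dissected at postnatal days 7 to 9. The cells were at passages 5 to 7, with 1 library per mark and condition. The library from cultures 30 h into differentiation bears the name N6 in the labels, and both libraries from proliferating cultures bear the name N5, of which the H3K4me3 culture alone is also labelled ventral. The labels of these libraries give no genotype beyond the strain, and the input libraries were not analysed here. Since no expression was measured in these files, the labelled cell type was not checked against markers, and with 1 library per list no difference below has a replicate check or a test.

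Pax genes encode transcription factors that bind DNA through a paired domain, and most of them direct the formation of particular tissues in the embryo. They fall into subgroups of close relatives, which pair Pax1 with Pax9 and Pax3 with Pax7, and place Pax2 and Pax5 with Pax8, and Pax6 with Pax4. Pax8 and Pax4 were not analysed here, so Pax6 has no close relative among the genes examined. Pax6 patterns the forebrain and eye, is present in radial glia, and acts in SVZ neurogenesis, where it promotes neuroblasts and the dopaminergic interneurons of the olfactory bulb. H3K27me3 is placed by the Polycomb complex that contains EZH2 and accompanies repression, whereas H3K4me3 accompanies active or poised gene starts. Regions that carry both marks are called bivalent, and are common at developmental regulators in stem cells. Polycomb domains in mammals tend to lie over DNA rich in CpG, which is why the gene starts are shown here with that dinucleotide.

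RefSeq sequence around annotated starts, 250 bases before to 50 bases after, was found in build GRCm38.p6 for Pax6, Pax2, Pax5, Pax7, Pax1 and Pax9, which is 6 of the 7 members and 9 starts, and Pax3 had no entry. The sequences below run 5′ to 3′ with each CG in capitals. They show both starts of Pax6, the start of Pax2 with the most CG, and the starts of Pax7 and Pax1, whose windows held no H3K4me3 peak. The peaks are in mm9 and these sequences are not, so the starts were not placed relative to the peaks.
Pax6 upstream start, chr2:105668646-105668945 (+ strand): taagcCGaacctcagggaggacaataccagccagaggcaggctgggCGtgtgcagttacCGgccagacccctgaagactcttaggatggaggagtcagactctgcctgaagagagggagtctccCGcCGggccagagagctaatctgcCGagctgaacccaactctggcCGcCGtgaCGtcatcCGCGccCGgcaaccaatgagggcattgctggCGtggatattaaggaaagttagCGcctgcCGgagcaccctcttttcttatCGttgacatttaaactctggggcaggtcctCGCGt
Pax6 downstream start, chr2:105682213-105682512 (+ strand): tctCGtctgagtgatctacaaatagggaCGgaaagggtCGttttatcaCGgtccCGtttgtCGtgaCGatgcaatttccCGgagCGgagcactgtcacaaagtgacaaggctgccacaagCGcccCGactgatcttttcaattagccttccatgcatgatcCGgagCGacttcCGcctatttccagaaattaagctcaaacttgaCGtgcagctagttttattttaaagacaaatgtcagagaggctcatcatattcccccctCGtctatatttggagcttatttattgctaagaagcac
Pax2 start richest in CG, chr19:44756656-44756955 (+ strand): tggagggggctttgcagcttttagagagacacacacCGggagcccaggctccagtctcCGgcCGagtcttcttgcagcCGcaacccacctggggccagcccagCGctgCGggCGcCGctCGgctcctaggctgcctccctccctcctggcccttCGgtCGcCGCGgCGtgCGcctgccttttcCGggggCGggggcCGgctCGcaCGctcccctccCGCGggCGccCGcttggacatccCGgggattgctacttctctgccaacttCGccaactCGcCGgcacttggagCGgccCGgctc
Pax7 start, chr4:139832919-139833218 (- strand): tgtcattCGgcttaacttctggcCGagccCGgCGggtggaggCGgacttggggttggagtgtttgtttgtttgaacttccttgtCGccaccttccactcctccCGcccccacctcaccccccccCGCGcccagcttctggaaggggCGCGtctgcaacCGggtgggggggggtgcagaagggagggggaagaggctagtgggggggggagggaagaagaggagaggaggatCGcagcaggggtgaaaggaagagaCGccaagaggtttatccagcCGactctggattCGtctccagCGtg
Pax1 start, chr2:147364744-147365043 (+ strand): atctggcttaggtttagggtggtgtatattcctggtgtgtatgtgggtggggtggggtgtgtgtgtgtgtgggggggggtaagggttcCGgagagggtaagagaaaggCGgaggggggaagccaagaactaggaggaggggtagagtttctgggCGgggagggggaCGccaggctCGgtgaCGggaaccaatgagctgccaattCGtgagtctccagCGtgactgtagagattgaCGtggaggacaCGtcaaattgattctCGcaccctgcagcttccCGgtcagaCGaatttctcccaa

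The letters CG, which read the same on both strands, occurred 18 times in the upstream Pax6 sequence and 16 times in the downstream sequence, 30 times at the Pax2 start with the most, 17 times for Pax7 and 13 times for Pax1. The median over the 9 member starts was 17.0, between 7 and 30, both of them at starts of Pax2. Over all 32851 sequences of the same length it was 7.00, and 29.7% of them held at least as many CG as the upstream Pax6 start, against 11.7% for the Pax2 start shown and 37.9% for Pax1. The Pax9 start, whose window held H3K4me3, had fewer CG (11) than the starts of Pax7 and Pax1, whose windows held none. Relative to the number expected from the C and G content, the order was the reverse. This ratio was 0.679 for Pax9, 0.639 for Pax1 and 0.581 for Pax7. Over the 9 starts it ran from 0.410, at the Pax2 start with the fewest CG, to 0.998, at the downstream Pax6 start. Both of these windows held H3K4me3, so the ratio did not separate windows with and without it. The letters CCAAT, searched on both strands, were found in 2 of the 9 member sequences, the upstream Pax6 start and the Pax1 start, and in 37.4% of all sequences.

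H3K27me3 was found in all of the 7 windows, both at 30 h and in proliferating cultures. On the numbered chromosomes and X, cut into tiles of 110 kb, the median window length, 24.3% of 23977 tiles held a 30 h H3K27me3 peak and 23.9% held a proliferating one. In 6 windows, all except that of Pax6, a peak at a score of 3100 or more stood in both lists, where the score is the authors' value from MACS and most of the strongest peaks are tied at 3100. Such a peak was found in 2.34% of tiles at 30 h and in 1.03% in proliferating cultures. H3K4me3 was found in 5 of the 7 windows, against 41.2% of tiles, and was not called in the windows of Pax7 and Pax1. Among the peaks themselves, 9 of 42 at 30 h had a score of 3100 or more (21.4%, against 3.42% of that list) and 6 of 30 in proliferating cultures (20%, against 2.41%). For H3K4me3 this was the case for 1 of 13 peaks (7.69%, against 46.1% of that list), and that peak lay in the Pax6 window. The members were named with earlier results known, so these counts describe them and do not test them.

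**Figure D1:**
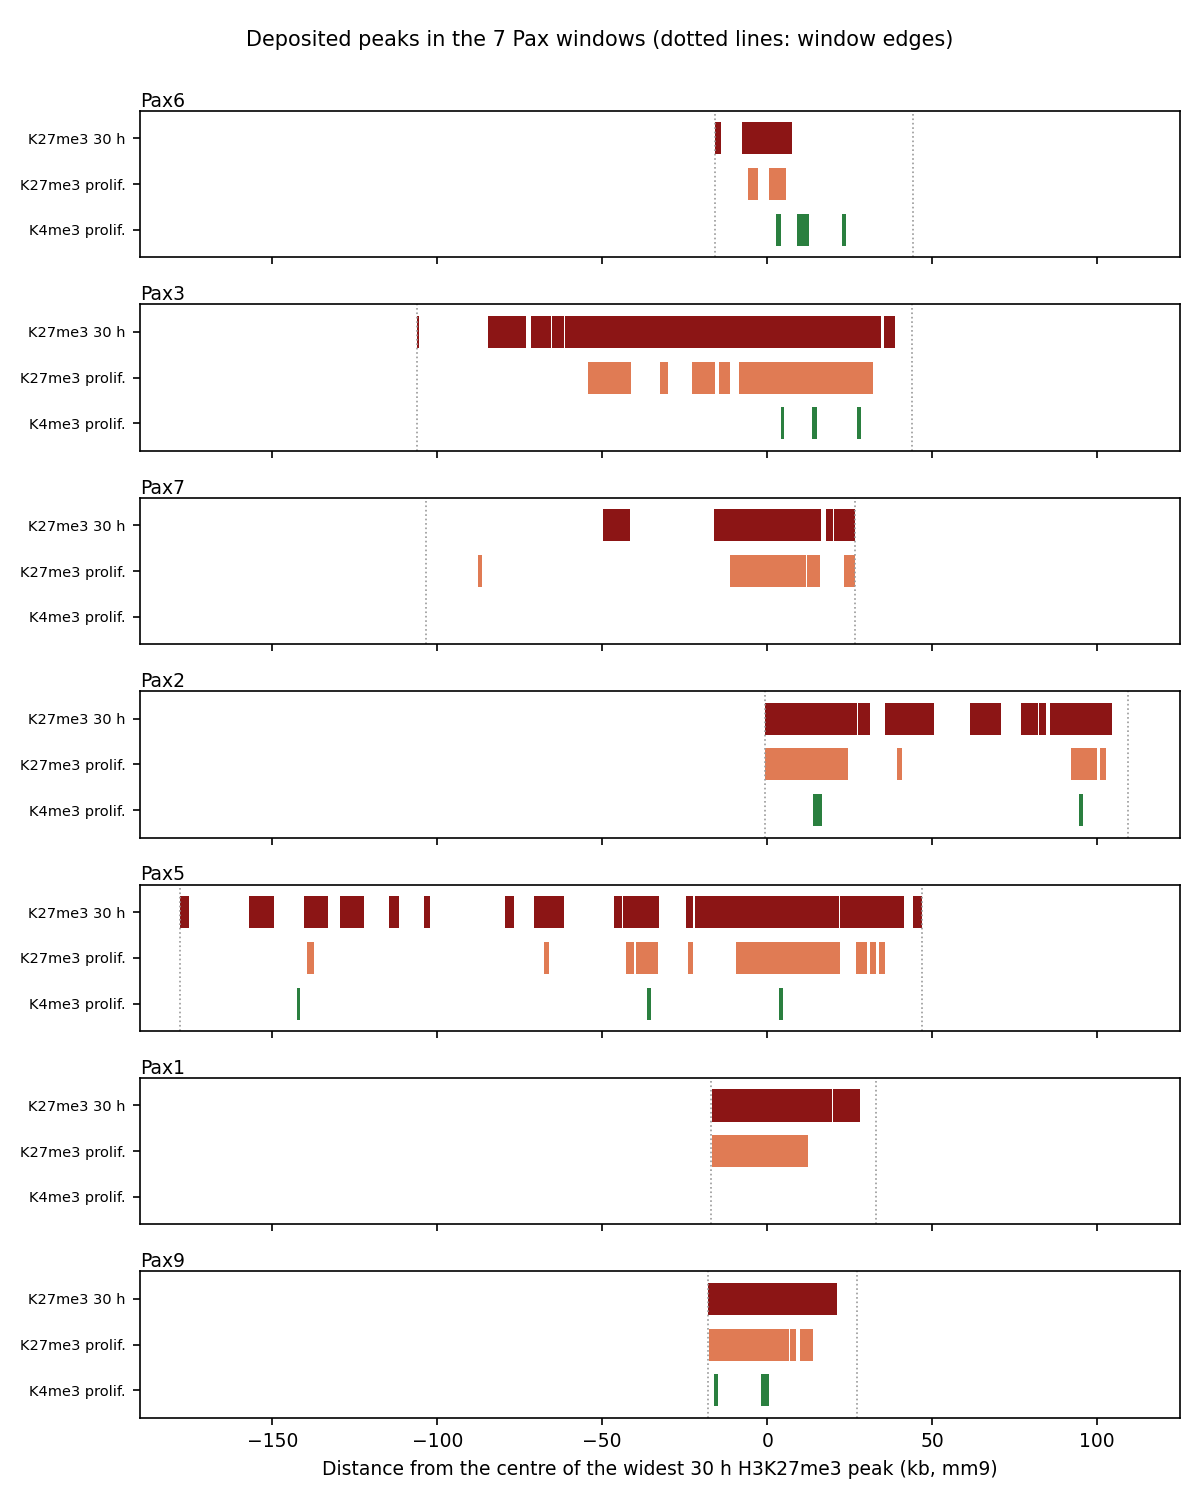
Peaks of the 3 lists (rows, top to bottom: H3K27me3 at 30 h, H3K27me3 before differentiation, and H3K4me3) in each window, drawn to scale in kb from the centre of the widest 30 h H3K27me3 peak and clipped at the window edges (dotted); gaps narrower than about 0.2 kb are not resolved. The Pax6 window shows an H3K4me3 peak of 3.70 kb to the right of the H3K27me3 peaks, and the rows for H3K4me3 are empty for Pax7 and Pax1.

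Pax6, the member with a known role in this lineage, combined the smallest H3K27me3 coverage of the 7 windows with the largest H3K4me3 coverage. At 30 h, 28.2% of its 60 kb window (chr2:105490000-105550000) lay under H3K27me3, against 37.9 to 89.5% in the windows of the other 6. In proliferating cultures the share was 13.5% for Pax6 and 23.4 to 66.7% for the others. For H3K4me3 it was 10.4% for Pax6 and 0 to 8.22% for the others, with Pax9 next and Pax2 following at 3.51%. The highest H3K27me3 score in the Pax6 window was 2530.94 at 30 h and 692.35 in proliferating cultures, and every other window reached at least 3100 in both lists. Of all tiles of 60 kb, 2.85% were covered at least as much as the Pax6 window by H3K27me3 at 30 h, 1.78% by H3K27me3 in proliferating cultures and 2.44% by H3K4me3. For the other 6 windows and tiles of their own lengths this was 0.0398 to 1.19% at 30 h and 0.0853 to 0.488% in proliferating cultures. The windows differ in how much flanking DNA they hold, which enters the percentages but not the scores or peak widths.

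The 3 H3K4me3 peaks of the Pax6 window differed in strength and in their relation to H3K27me3. The strongest lay on chromosome 2 from 105514808 to 105518506, was 3699 bp wide with a score of 3100, and ranked 1358 by width among the 18727 H3K4me3 peaks. No H3K27me3 peak touched it. The nearest H3K27me3 peak ended 1504 bp to its left at 30 h and 3379 bp to its left in proliferating cultures. Of all H3K4me3 peaks without overlap, 5.42% of 16048 lay within 2 kb of a 30 h H3K27me3 peak, and 4.62% of 16676 lay within 5 kb of a proliferating one. The second H3K4me3 peak, from 105508453 to 105509778, was 1326 bp wide with a score of 254.36 and lay wholly under H3K27me3 in both lists. The third, from 105528379 to 105529605, was 1227 bp wide with a score of 102.64, and lay 15075 bp from H3K27me3 at 30 h and 16950 bp from it in proliferating cultures.

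H3K27me3 in the Pax6 window lay in its left part in both lists. At 30 h a 15.1 kb peak from 105498183 to 105513303 scored 2530.94, a score reached by 640 of the 15187 peaks of that list. A second, weak 30 h peak of 2367 bp with a score of 92.69 crossed the left edge of the window. In proliferating cultures a peak of 5183 bp from 105506246 to 105511428 scored 692.35 and a peak of 2913 bp from 105500011 to 105502923 scored 245.53. The 15.1 kb peak at 30 h spanned both of these, and 53.5% of it lay under them. Relative to the stronger proliferating peak it began 8063 bp further left and ended 1875 bp further right, which brought its end closer to the strong H3K4me3 peak. To the right of that H3K4me3 peak, up to the window's end, neither list held an H3K27me3 peak.

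Among all 13 H3K4me3 peaks of the windows, 10 overlapped H3K27me3 at 30 h (76.9%, exact Clopper-Pearson 95% interval 46.2 to 95%) and the same number in proliferating cultures. Over the whole H3K4me3 list, 14.3% of peaks overlapped H3K27me3 at 30 h and 11.0% in proliferating cultures. Of the 13, 12 scored below 3100. Of these 12, 10 overlapped H3K27me3 in each list, against 22.6% of 10100 H3K4me3 peaks below 3100 at 30 h and 18.1% in proliferating cultures. Of the H3K4me3 peaks at 3100 or more, 4.63% overlapped H3K27me3 at 30 h and 2.62% in proliferating cultures, and the strong Pax6 peak was among those that did not. Seen from H3K27me3, 5 of the 9 peaks at 3100 or more at 30 h held an H3K4me3 peak, against 64.4% of 519 such peaks in the whole list, and 4 of 6 did in proliferating cultures, against 71.5% of 228. The intervals cover counting error alone, and peaks of the same window are not independent. Overlap was seen in bulk cultures, so whether both marks lay on the same chromosomes was not measured. H3K4me3 was profiled in proliferating cultures alone, so its overlap with 30 h H3K27me3 joins different times and does not show both marks at 30 h. The label ventral is also borne by the H3K4me3 culture alone.

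The 3 peaks without overlap were the strong and the weakest of the Pax6 window and a weak peak of the Pax5 window. By length, 21.2% of the H3K4me3 in the Pax6 window lay under H3K27me3, both at 30 h and in proliferating cultures. This was 75.4% for Pax5 and 100% for Pax3, Pax2 and Pax9, in both lists. The whole-list values were 8.61% at 30 h and 7.12% in proliferating cultures. All overlapping H3K4me3 peaks were covered over their full length, and the longer 30 h list thus met no H3K4me3 peak in these windows that the proliferating list had not met.

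**Figure D2:**
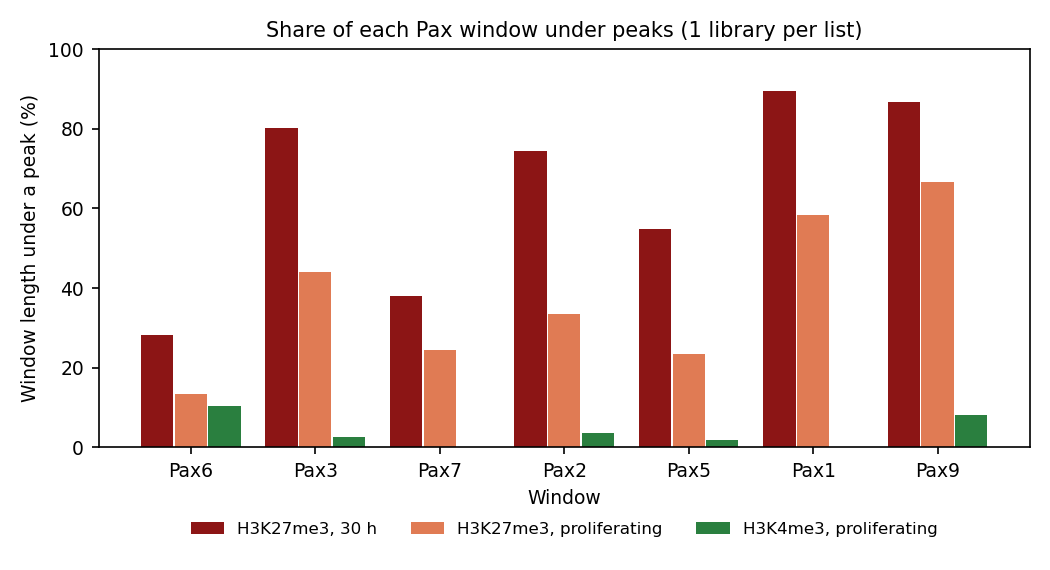
Percent of each window's length under peaks (y axis) for the 7 windows (x axis); bars are H3K27me3 at 30 h, H3K27me3 before differentiation and H3K4me3, 1 library each, so there are no error bars. Pax6 has the lowest H3K27me3 bars (28.2% and 13.5%) and the highest H3K4me3 bar (10.4%).

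Pax3, which specifies dorsal neural tube, neural crest and migrating muscle progenitors, had the longest H3K27me3 domain of the 7 windows. At 30 h, 9 peaks covered 80.3% of its 150 kb window on chromosome 1 (78080000 to 78230000), and in proliferating cultures 7 peaks covered 44.0%. The widest 30 h peak ran from 78151418 to 78220555, 69.1 kb, and ranked 9 by width in its list. The widest proliferating peak lay inside it, from 78180411 to 78218024, was 37.6 kb wide and ranked 19. Both scored 3100. When peaks less than 3 kb apart were joined, the domain measured 123.2 kb at 30 h and 54.7 kb in proliferating cultures, which placed it 7th widest of 10640 joined domains at 30 h and 14th of 7853 in proliferating cultures. The 30 h domain reached 61.8 kb further left and 6.66 kb further right. The stretch on the left was not free of H3K27me3 in proliferating cultures. It held proliferating peaks of 13.0 kb (score 1420.61) and 2.52 kb (score 127.33), which lay too far from the domain to be joined. Of the tiles of 150 kb, 0.0398% were covered at least as much as this window at 30 h and 0.0853% in proliferating cultures. The 3 H3K4me3 peaks, with scores of 79.25, 809.09 and 147.68 and widths of 941 to 1559 bp, all lay within both widest H3K27me3 peaks.

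Pax7, which acts with Pax3 in the dorsal neural tube and marks muscle satellite cells, differed from it in coverage and in H3K4me3. Its 130 kb window on chromosome 4 (139280000 to 139410000) was covered to 37.9% at 30 h and to 24.4% in proliferating cultures, and held no H3K4me3 peak. The widest 30 h peak ran from 139367113 to 139399660 (32.5 kb, score 3100) and the widest proliferating peak from 139371973 to 139395092 (23.1 kb, score 3100). A further 30 h peak of 16.5 kb with a score of 1956.44 crossed the right edge of the window, where the proliferating list had a peak of 4929 bp with a score of 707.66. An 8021 bp peak at 30 h from 139333761 to 139341781, with a score of 249.76, lay 30.2 kb from the nearest proliferating peak. In the opposite direction, a proliferating peak of 1237 bp from 139295596 to 139296832 had no 30 h peak over it, and with a score of 51.15 it was near the lowest score of its list, 50.01. The nearest H3K4me3 peak to any H3K27me3 peak of this window was 102.6 kb away.

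Pax2 and Pax5 are expressed at the boundary of midbrain and hindbrain, and beyond it Pax2 acts in kidney, ear and optic stalk and Pax5 in B cell commitment. In the 110 kb Pax2 window on chromosome 19 (44815000 to 44925000), H3K27me3 covered 74.4% in 8 peaks at 30 h and 33.5% in 4 peaks in proliferating cultures. Strong regions stood at its ends. The left one held a 54.7 kb peak at 30 h (44788497 to 44843159) and a peak of 27001 bp in proliferating cultures (44813358 to 44840358), both at 3100 and both reaching beyond the window. The right one held an 18.6 kb peak with a score of 3100 at 30 h (44901646 to 44920281) and an 8168 bp peak with a score of 1628.17 in proliferating cultures (44907733 to 44915900). Each region carried an H3K4me3 peak in its interior, the left one with a score of 1697.18 and a width of 2746 bp, the right one with 256.12 and 1112 bp. Between them the 30 h list had 6 further peaks, and the proliferating list had 1 peak of 1416 bp with a score of 61.64.

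The Pax5 window, the longest with 225 kb on chromosome 4 (44535000 to 44760000), held the most peaks. There were 15 H3K27me3 peaks at 30 h, covering 54.9%, and 9 in proliferating cultures, covering 23.4%. The main domain lay at the right end, with a 43.7 kb peak from 44691218 to 44734939 at 30 h and a 31.5 kb peak from 44703671 to 44735177 in proliferating cultures, both at 3100. A 19.4 kb peak beside it, from 44735050 to 44754414, had a score of 3233.06, the highest value in the 30 h list. Many peaks of that list are tied at 3100, and the value does not show that this peak was stronger than they were. In the same stretch the proliferating list had, beside the end of its main peak, 3 peaks of 1798 to 3196 bp. Their scores were 67.93 to 202.83. The remaining 30 h peaks were spread over the window, and 8 of the 15 overlapped no proliferating peak. The H3K4me3 peaks at 44676531 to 44678008 (score 831.6) and 44716541 to 44717997 (score 283.46) lay under H3K27me3 in both lists. That at 44570678 to 44571632, 955 bp wide with a score of 109.9, did not, and lay 1041 bp from H3K27me3 at 30 h and 2118 bp from it in proliferating cultures.

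Pax1 and Pax9, which act in the sclerotome that forms the vertebrae and in pharyngeal pouch derivatives, with Pax9 also needed for teeth and palate, had the highest H3K27me3 coverage. In the 50 kb Pax1 window on chromosome 2 (147175000 to 147225000), 89.5% lay under 3 peaks at 30 h and 58.4% under 1 peak in proliferating cultures. That peak ran from 147175418 to 147204611 (29.2 kb, score 3100), and the 30 h peak over it from 147175347 to 147208869 (33.5 kb, score 3100). The joined domains of the 2 lists differed by 4.36 kb at the left and 15.7 kb at the right end. Pax1 had no H3K4me3 peak, and the nearest was 60.1 kb from its 30 h peaks. In the 45 kb Pax9 window on chromosome 12 (57780000 to 57825000), 86.8% lay under a 42.3 kb peak at 30 h (57776752 to 57819054, score 3100) and 66.7% under 3 peaks in proliferating cultures, the widest of 24.3 kb (57780174 to 57804430, score 3100). Pax9 differed from Pax1 in its 2 H3K4me3 peaks, of 1267 bp with a score of 346.89 and of 2432 bp with a score of 917.86, both inside the widest H3K27me3 peak of each list.

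Members of a subgroup were not always closest in the covered percentages of their windows. With likeness taken as the distance between windows in the 3 covered percentages, Pax1 and Pax9 were nearest to each other, at 12 percentage points. Pax3 was nearest to Pax2 (12.1) and lay 46.8 from its relative Pax7. Pax2 lay 22.0 from its relative Pax5. Pax6 was nearest to Pax7 (17.9) and farthest from Pax9 (79.2). These distances rest on 1 library per list, depend on the flanking DNA in each window, and were not recomputed under other settings. H3K4me3 coverage ranged from 0 to 10.4%, against 28.2 to 89.5% for H3K27me3 at 30 h, so it could add less to them.

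At 30 h the 7 windows held 475.6 kb of H3K27me3, against 254.4 kb in proliferating cultures, and coverage was higher at 30 h in each window. The median window was covered to 74.4% at 30 h and to 33.5% in proliferating cultures. The difference was 14.7 percentage points for Pax6 and 13.5 to 40.9 for the others, with Pax7 lowest and Pax2 highest. Both the sizes and their order depended on the length of the 30 h list. With its weakest peaks dropped until both lists covered equal length, the difference was 11.7 points for Pax6, 19.8 for Pax3, 5.66 for Pax7, 22.5 for Pax2, 10.7 for Pax5, 25.3 for Pax1 and 20.1 for Pax9, so that it remained positive in each window, but Pax1 was highest and Pax6 lay above Pax5. As a ratio of covered length, Pax6 had 2.09, within the range of the others, which was 1.30 for Pax9 to 2.35 for Pax5. Over all 7 windows the ratio was 1.87. The 30 h list covered 73.4 Mb in all and the proliferating list 29.2 Mb, a ratio of 2.52. Each window's ratio was below this, but coverage cannot exceed the whole window. In proliferating cultures it was already 66.7% for Pax9, 58.4% for Pax1 and 44.0% for Pax3, so these windows could not have reached 2.52. Their lower ratios were thus fixed in advance and are not a result about the members. Pax9, with the lowest ratio, had the highest coverage in proliferating cultures (66.7%). Depth is unknown because the lists hold no read counts, and its part in the difference was not tested. The H3K27me3 libraries also bear different names in the labels, so time cannot be told apart from what those names stand for.

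The proliferating peaks of these windows nearly all overlapped 30 h peaks. Of the 30 proliferating peaks, 29 overlapped a 30 h peak (96.7%, exact 95% interval 82.8 to 99.9%), against 61.3% of the whole list. All 228 proliferating peaks at 3100 or more, 6 of them in these windows, overlapped a 30 h peak. By length, 100% of the proliferating H3K27me3 in the windows of Pax6, Pax3, Pax2, Pax1 and Pax9 lay under 30 h peaks, with 99.6% for Pax5 and 96.1% for Pax7, against 74.3% for the whole list. In the other direction, 17 of 42 peaks at 30 h overlapped a proliferating peak (40.5%, exact 95% interval 25.6 to 56.7%), against 30.7% of the whole list. By length, 47.8% of the 30 h H3K27me3 in the Pax6 window lay under proliferating peaks, against 42.4 to 76.8% in the others. For the whole lists it was 29.5%. Clipping to the window also keeps the window shares high where proliferating peaks cover much of it.

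**Figure D3:**
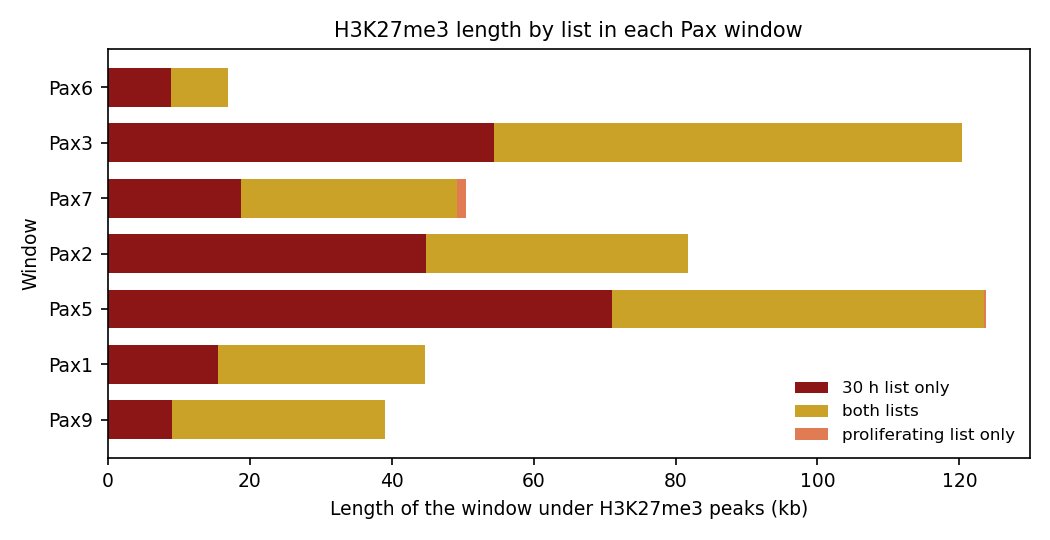
Length of each window under H3K27me3 peaks (x axis, kb), split into length in the 30 h list only, in both lists and in the proliferating list only; 1 library per list. The part in the 30 h list only is 8.84 kb for Pax6 and 71.1 kb for Pax5, and the part in the proliferating list only is at most 1.24 kb, for Pax7.

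In every window the widest joined domain extended further on both sides at 30 h than in proliferating cultures. Not all of this length was free of proliferating peaks. For Pax6, Pax3, Pax7 and Pax5 it held further proliferating peaks, left out of the joined domain as 3 kb or more away. For Pax6 this was the peak of 2913 bp. The edges were not recomputed with a shorter 30 h list. The extension was 8.06 kb on the left and 1.88 kb on the right for Pax6. For the others it was 3.42 to 61.8 kb on the left and 6.66 to 32.4 kb on the right. Pax6 had the shortest right extension in kb, but its domain was also the smallest in both lists. Relative to its width in proliferating cultures, the Pax6 domain widened the most of the 7. Left and right are map directions, and the starts of Pax7 and Pax5 lie on the - strand, so a side does not mean the same for each gene. The joined Pax6 domain measured 15.1 kb at 30 h and 5.18 kb in proliferating cultures, with 10.5% of all joined domains at least as wide at 30 h and 16.3% in proliferating cultures. The main domains of the other 6 windows were all among the widest 1.5% at 30 h and the widest 1.11% in proliferating cultures.

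**Figure D4:**
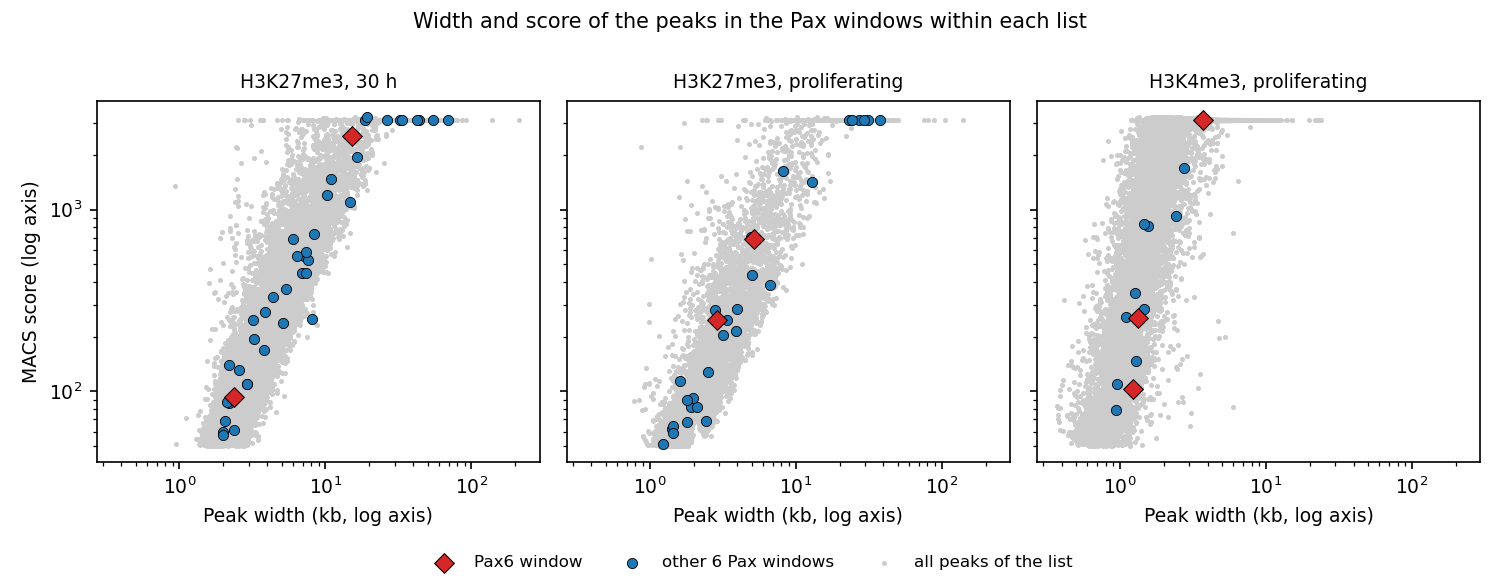
Width (x axis, kb, log scale) and MACS score (y axis, log scale) of the peaks in the Pax6 window (diamonds), in the other 6 windows (circles) and of all peaks of each list (grey), 1 panel per list. The H3K27me3 peaks at 3100 or more belong to the other windows, whereas the H3K4me3 peak at 3100 is that of Pax6.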

How the data were processed

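The authors aligned reads with Bowtie2 to mm9 (per the labels' processing notes) and called peaks with MACS. For H3K27me3, model building and the local lambda were switched off. Its version, threshold and use of input: not given in the sources used here. Deposited lists for each library hold a start, an end and a score per peak, in BED form, and starts were raised by 1 base for printing. The score is the authors' value from MACS, compared only within a list. The lists give no read counts, so depth is unknown.

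The members, windows, subgroups and tile background were chosen with earlier results of these data known. All members are named, with the widest and highest-scoring peaks of each window. Overlap meant at least 1 bp; coverage was clipped to the window, which 9 peaks crossed. Peaks less than 3 kb apart were joined into domains. Python 3.11.15, numpy 2.4.6, pandas 2.3.3, scipy 1.17.1, matplotlib 3.10.9 and bedtools 2.31.1 were used. Coverage code matched a base-by-base count in 20 of 20 simulated pairs of lists. Other genes, Pax4 and Pax8 included, were not examined, since the annotation used (RefSeq, GRCm38.p6) does not share the peaks' build. Alternatives were the stronger 50% of each list, windows widened by 20 kb, 50% overlap, joining, and a shorter 30 h list.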

Additional observations from a re-analysis of the deposited data

How the results depend on the processing

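All values rest on 1 library per list. The Pax6 window had the lowest H3K27me3 coverage of the 7 in both lists and the highest H3K4me3 coverage under each alternative that bears on it. The 50% overlap does not enter coverage, and a shorter 30 h list bears on the 30 h coverage alone. With the stronger 50% of each list, H3K4me3 was left in 1 window, Pax6, with its strongest peak alone, so that 0% of the H3K4me3 peaks in the windows overlapped H3K27me3 in either list (0 of 1) and H3K4me3 covered 6.17% of the Pax6 window. With windows widened by 20 kb on each side, H3K27me3 covered 17.5% of the Pax6 window at 30 h and 8.10% in proliferating cultures, and H3K4me3 covered 6.25%. The wider window has more flanking DNA by construction. Of 70 values recomputed, 58 stayed within 1.5 times the main value (shares, within its 95% interval) and 12 moved further. Only the differences between 30 h and proliferating coverage could change direction, and 0 did. Some values could not change, such as the count of 7 windows with H3K27me3 when windows were widened. The tally is therefore not a measure of how firm the results are. The higher coverage at 30 h was kept in each of the 7 windows under each alternative that bears on it. When the weakest 30 h peaks were dropped until both H3K27me3 lists spanned equal length (2196 peaks left), it was 11.7 percentage points for Pax6 and 5.66 (Pax7) to 25.3 (Pax1) for the others, and it moved by over 1.5 times for Pax3 (19.8), Pax7, Pax2 (22.5) and Pax5 (10.7). It also did for Pax6 (9.39) with widened windows. Dropping weak peaks keeps the strongest peaks and so favours wide domains. These differences were added to the planned results after seeing the data. No paired analysis was possible because each group has 1 library.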
